A study of Mus musculus with 24 samples.

Results

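Alveolar macrophages, the resident phagocytes of the lung's airspaces, were exposed to bacterial lipopolysaccharide (LPS) at 2 postnatal ages, and their RNA was set side by side: 2 libraries of LPS-treated cells from day 49 (D49 LPS) against 2 from day 21 (D21 LPS), 4 of the 24 libraries in the series. Cells were obtained by lavage and kept for 4 h in medium with 400 ng/mL LPS of Escherichia coli. Control cells of the same ages (3 D49 control and 3 D21 control libraries) spent those 4 h in medium without LPS. The 14 other libraries cover both treatments at D1, D3 and D7. A library held between 45000 and 75000 cells pooled from at least 3 mice. Strain, sex and genotype are not stated in the labels. The labels do not say that libraries of a group came from separate animals, so p-values measure a spread between pooled samples, which may be technical. That spread was estimated within the groups of all 24 libraries, not from the 4 LPS libraries alone. RNA of a whole pool was measured, so fewer cells of a type and less RNA per cell cannot be told apart.

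Alveolar macrophages settle in the airspaces in the days around birth, depend on GM-CSF, TGF-beta and the nuclear receptor Pparg, and clear surfactant, debris and microbes. LPS is sensed by Tlr4 together with Cd14. A first wave of transcripts, among them the cytokines Tnf, Il1b and Il6, is driven by NF-kappa-B, and a second wave of interferon-stimulated genes follows once interferon beta (Ifnb1) signals back through its receptor. All 12 defining markers of alveolar macrophages were detected in all 4 LPS libraries, with levels between 83.2 CPM for Pparg in D21 LPS library 2 and 24707 CPM for the chitinase-like protein Chil3 in D49 LPS library 2. CPM is a gene's count scaled to the library's total, adjusted between libraries with TMM factors.

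The D49 LPS libraries held 18476125 and 20331056 counts and the D21 LPS libraries 20739118 and 17064633, within the 15770751 to 23334625 counts per library of the series. Ranks of genes correlated at 0.982 between the D49 LPS libraries and at 0.992 between the D21 LPS libraries (Spearman, across genes). Across the ages, D49 LPS library 1 correlated at 0.987 and 0.982 with D21 LPS libraries 1 and 2, and D49 LPS library 2 at 0.974 and 0.971. By this measure D49 LPS library 1 was no closer to its replicate than to the D21 LPS libraries. Replicates differed by more than sampling noise (chi-square of their counts per degree of freedom, 15.1 or more in each pair). Libraries of the series differed in how GC-rich against GC-poor transcripts were represented. This GC deviation, a log2 offset, was -0.206 and -1.34 in the D49 LPS libraries and 0.045 and -0.201 in the D21 LPS libraries, and ran between -3.17 and 2.84 over all libraries. Results are therefore given from 2 fits over all 24 libraries: one without a covariate and one with the GC deviation as a covariate, called the covariate fit. Calls were made at an adjusted p of 0.05 (edgeR quasi-likelihood test, Benjamini-Hochberg adjustment over 11774 tested genes). Values after ± on a log2 difference are standard errors.

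Without a covariate, 2 genes differed between LPS-treated macrophages of D49 and D21, and both were lower at D49: the interferon-inducible GTPase Iigp1 and the secreted follistatin-like glycoprotein Fstl1. They were 0.017% of the genes tested, and 0 genes were higher. Both fall outside the rule by which genes are named, because their FPKM was under 5, and are given because there were so few. Iigp1, which attacks the vacuoles of intracellular parasites, had 0.386 and 0.362 CPM in the D49 LPS libraries, against 9.5 and 9.33 CPM in the D21 LPS libraries. The 2 libraries of each age were close to each other and the ages did not overlap. The log2 difference was -4.63 ± 0.60 (adjusted p = 0.0039). Fstl1, known as a modulator of BMP signalling in the developing lung, had 9.01 and 8.26 CPM in D49 LPS cells, against 21.5 and 21.5 CPM in D21 LPS cells (log2 difference -1.31 ± 0.20, adjusted p = 0.016). In this fit Iigp1 did not pass once either D49 LPS library was left out, and Fstl1 did not pass once any 1 of the 4 LPS libraries was left out. Both passed in the covariate fit, also with each of the 10 D21 and D49 libraries left out in turn. An unadjusted p under 0.05 was found for 468 genes, and DESeq2 called 45.

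**Figure D1:**
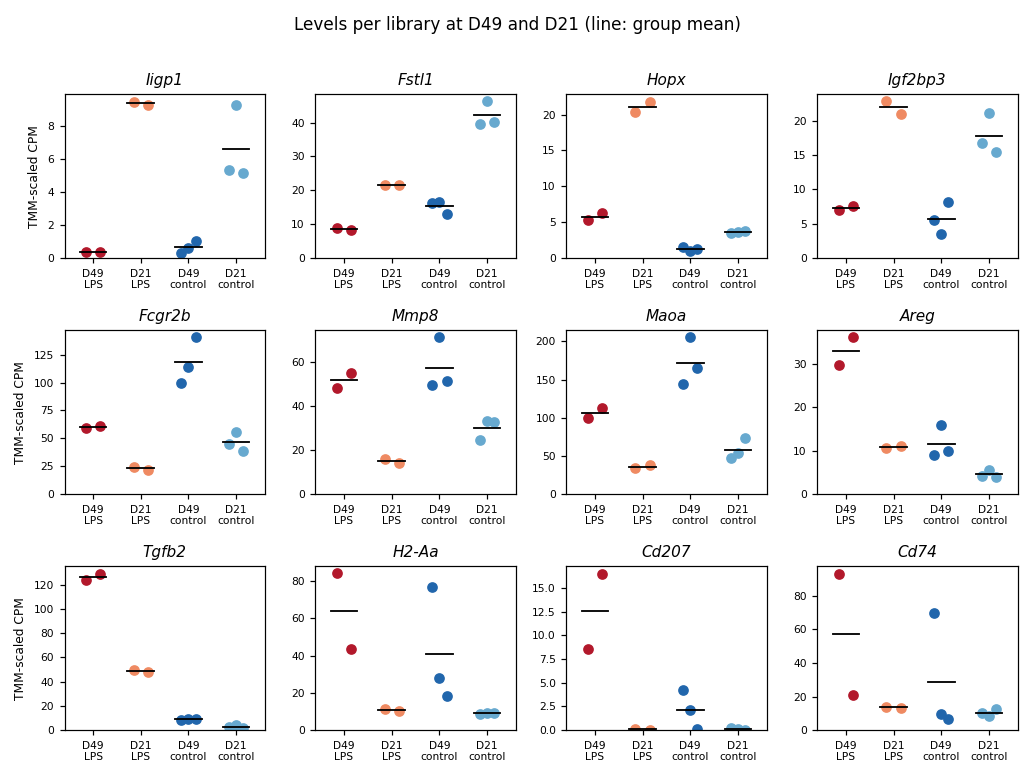
TMM-scaled CPM (vertical axis, from 0) of 12 genes in each D49 LPS, D21 LPS, D49 control and D21 control library. Points are libraries and lines are group means. In the panels of Iigp1, Fstl1, Hopx and Igf2bp3 both D49 LPS points lie below both D21 LPS points, and in the other panels they lie above.

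With the covariate, 31 genes rose at D49 with LPS (0.263% of those tested) and 68 fell (0.578%). The median log2 difference was 1.64 over the genes that rose and -3.02 over those that fell. The count was 21 without D49 LPS library 1, 72 without D49 LPS library 2, 30 without D21 LPS library 1 and 45 without D21 LPS library 2. All 99 genes had the same sign in the fit without a covariate. Among the largest rises were Cd207 and the MHC class II genes H2-Aa, H2-Ab1 and Cd74, and the genes that fell included those of secreted liver proteins such as Fga, Apob and Alb. The 95% interval of a gene's log2 difference had a median half-width of 0.87 without a covariate and 0.63 with it, so a gene that did not pass is not shown to be equal at the 2 ages.

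The same age difference was measured without LPS in other libraries. Whether LPS and control libraries of an age were made from shared pools of mice was not tested, so the 2 age differences may not be independent. In the covariate fit they also share 1 GC term per gene. Over all 11774 tested genes in that fit, 6448 lay above 0 with LPS and 6271 in control cells. How many of all genes had the same sign in both was not counted. All 31 genes that rose with LPS in the covariate fit were also higher in D49 control than in D21 control cells, and 25 of them passed there. That is 80.6% of the LPS risers and 12.3% of the 204 genes that rose in control cells in that fit (1.73% of those tested). Of the 68 genes that fell with LPS, 68 were also lower in D49 control cells and 53 passed, which is 77.9% of the LPS list and 27.6% of the 192 that fell in control cells (1.63%). Without a covariate, 91 genes rose in control cells (0.773%) and 57 fell (0.484%). The control groups hold 3 libraries each and the LPS groups 2, so these counts were not made at equal size.

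**Figure D2:**
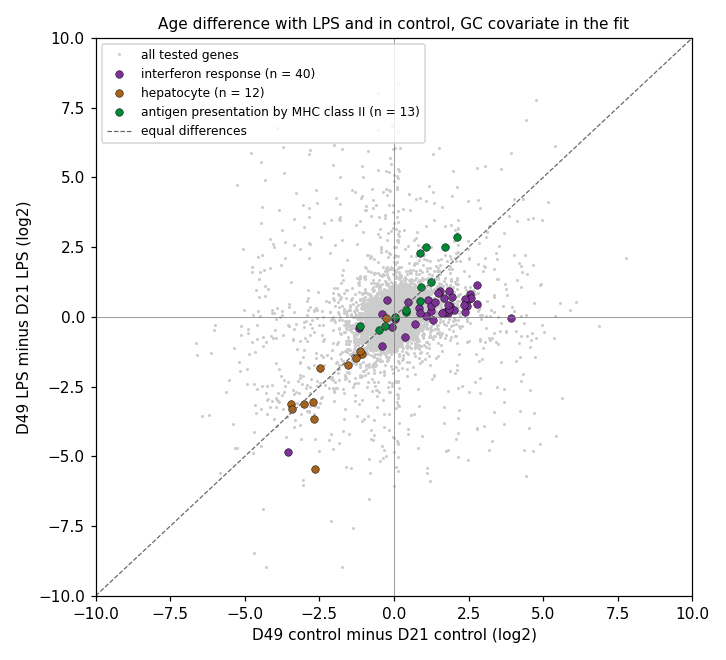
Log2 difference between D49 and D21 with LPS (vertical axis) against that in control cells (horizontal axis) for each tested gene in the covariate fit, with 3 gene lists in colour and a dashed line of equal differences. All 12 hepatocyte genes lie below 0 on both axes, and their LPS value minus their control value runs from -2.80 to 0.65. Most of the 40 interferon response genes lie to the right of the dashed line, with a median of 1.57 in control cells and 0.34 with LPS.

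In the covariate fit, MHC class II antigen presentation had the highest median of the 23 pathway lists and the most genes that rose. Of 13 tested members 3 rose in the covariate fit and 0 fell, and the list's median log2 difference was 0.56, beside 0.04 over all tested genes. Without a covariate 0 of the 13 passed (3 at an unadjusted p under 0.05, and 1 with DESeq2) and the median was 0.30, below those of the mitochondrially encoded genes (0.40), chemokines (0.36) and interferon response (0.35). H2-Aa, the class II alpha chain, had 84.2 and 43.7 CPM in D49 LPS libraries, against 11.1 and 10.1 CPM in D21 LPS libraries. Both D49 libraries lay above both D21 libraries, and they also differed among themselves. The log2 difference was 2.85 ± 0.37 in the covariate fit (adjusted p = 8.1e-05) and 2.59 ± 0.63 without a covariate (adjusted p = 0.22). In control cells H2-Aa had 76.6, 28.2 and 18.3 CPM at D49, against 8.84, 9.2 and 9.29 CPM at D21. Cd74, the invariant chain that chaperones class II molecules, had 93.4 and 21.2 CPM in D49 LPS libraries, against 13.9 and 13.1 CPM in D21 LPS libraries. H2-Ab1, the class II beta chain, had 34 and 11 CPM at D49, against 4.3 and 4.99 CPM at D21. Cd74 rose by 2.49 ± 0.49 (adjusted p = 0.0061) and H2-Ab1 by 2.51 ± 0.50 (adjusted p = 0.0081) in the covariate fit, and neither passed without D49 LPS library 1, without D21 LPS library 1 or without D21 LPS library 2.

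Summed over H2-Aa, H2-Ab1, H2-Eb1 and Cd74, class II transcripts came to 227 and 79.4 CPM in D49 LPS libraries, against 31.9 and 30.3 CPM in D21 LPS libraries. The first library of D49 was highest with and without LPS, at 186 CPM in control cells, against 48.6 and 32.4 CPM in the other D49 control libraries and 23.5 to 30.4 CPM in D21 control libraries. Class II is also carried by B cells, dendritic cells and interstitial macrophages. The 12 interstitial macrophage markers summed to 5.73 and 4.58 CPM in D49 LPS libraries, against 2.07 and 2.2 CPM in D21 LPS libraries, with Folr2 at 0 in all 4. This sum was higher at D49, but its members did not move alike. Only 2 of them were tested, 1 above 0 and 1 below in the covariate fit (log2 differences of 4.14 and -0.26). The highest marker was Timd4 at D49 and Ccr2 at D21. The 11 B and plasma cell markers summed to 0.45 and 0.603 CPM in D49 LPS libraries, against 0.212 and 1.04 CPM in D21 LPS libraries, with Cd79a, Cd79b, Mzb1 and Pax5 at 0 in all 4. The 10 dendritic cell markers summed to 25.9 and 25.5 CPM at D49, against 49.8 and 42.6 CPM at D21, with Zbtb46 the highest in both groups and Cd209a and Siglech at 0 in the D21 LPS libraries. The part of these cells in the class II values was not tested.

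Cd207, encoding langerin, a lectin of Langerhans cells and some lung dendritic cells, had 8.62 and 16.5 CPM in D49 LPS libraries, against 0.159 and 0 CPM in D21 LPS libraries. That is 408 counts at D49 against 3 counts at D21, a ratio of 145 (95% counting interval 49.3 to 707, exact binomial, for counting error only). It rose in the covariate fit (adjusted p = 0.0014), with each of the 10 D21 and D49 libraries left out in turn as well, and not without a covariate (adjusted p = 0.28). In control cells it had 4.28, 2.15 and 0.0755 CPM at D49, against 0.172, 0.0667 and 0 CPM at D21. Levels with LPS were at most 0.0509 CPM at D1, D3 and D7. Cd207 was chosen after its values were seen, as were the other genes named outside the rule.

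By the naming rule, which takes the genes of lowest p when few pass, Fcgr2b, Mmp8, Maoa, Areg, H2-Aa and Lipf led the higher side. None of them passed without a covariate, and all rose in the covariate fit. Fcgr2b, the inhibitory Fc gamma receptor, had 58.8 and 61.2 CPM in D49 LPS libraries, against 24.3 and 21.7 CPM in D21 LPS libraries (log2 difference 1.30 ± 0.23 in the covariate fit, adjusted p = 0.0035). It was the only one to rise among 25 phagocytic and scavenger receptor genes, whose median was 0.11. Mmp8, a collagenase abundant in neutrophils, had 48.4 and 55.4 CPM in D49 LPS libraries, against 15.8 and 14.3 CPM in D21 LPS libraries (1.68 ± 0.30, adjusted p = 0.0035). The 12 neutrophil markers, of which Mmp8 is one and the highest, summed to 79.2 and 90.7 CPM at D49, against 45 and 52 CPM at D21, with Ly6g at 0 in all 4 libraries. The rise of Mmp8 is itself part of that sum. Over the 7 tested neutrophil markers the median log2 difference was -0.02 in the covariate fit, with 3 above 0 and 4 below. The part of neutrophils in the Mmp8 value was not tested. Maoa, the amine-degrading enzyme monoamine oxidase A, had 100 and 113 CPM in D49 LPS libraries, against 33.7 and 37.5 CPM in D21 LPS libraries (1.43 ± 0.26, adjusted p = 0.0035). The gastric lipase gene Lipf had 9.59 and 12.1 CPM in D49 LPS libraries, against 3.4 and 2.98 CPM in D21 LPS libraries (1.55 ± 0.34, adjusted p = 0.02).

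Both epidermal growth factor receptor ligands described here were higher at D49 in the covariate fit, and neither passed without a covariate. Areg, encoding amphiregulin, a factor linked to epithelial repair, had 29.8 and 36.1 CPM in D49 LPS libraries, against 10.5 and 11 CPM in D21 LPS libraries (1.52 ± 0.31 in the covariate fit, adjusted p = 0.0095). Ereg, encoding epiregulin, had 449 and 510 CPM at D49, against 214 and 201 CPM at D21 (1.02 ± 0.24, adjusted p = 0.029). Both ligands were also higher in D49 than in D21 control cells in that fit, by 1.28 ± 0.26 and 0.95 ± 0.20. Tgfb2, a TGF-beta ligand and the only one of 20 tolerogenic genes to rise, had 124 and 129 CPM in D49 LPS libraries, against 49.6 and 48 CPM in D21 LPS libraries (1.29 ± 0.29, adjusted p = 0.023). At D7, D3 and D1 its LPS levels lay between 10.2 and 20.1 CPM, so all 4 libraries described here were above every earlier one. Timp2, an inhibitor of matrix metalloproteinases, had 18.3 and 14.1 CPM at D49, against 5.73 and 3.82 CPM at D21 (1.87 ± 0.34, adjusted p = 0.0035). Clec5a, a lectin receptor of myeloid cells, had 358 and 442 CPM at D49, against 180 and 176 CPM at D21 (0.93 ± 0.21, adjusted p = 0.025). With the covariate, Areg, Ereg, Tgfb2, Clec5a and Lipf did not pass once any 1 of the 4 LPS libraries was left out, Fcgr2b and Timp2 not without D49 LPS library 1 or D21 LPS library 2, Maoa not without D49 LPS library 1 or D21 LPS library 1, and Mmp8 not without either D21 LPS library.

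**Figure D3:**
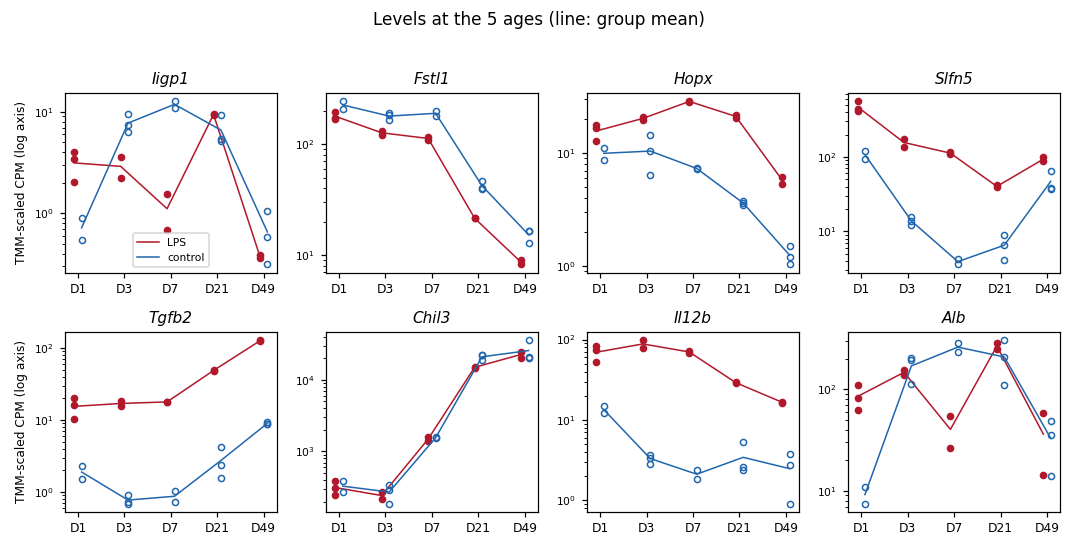
TMM-scaled CPM (log axis) of 8 genes at D1, D3, D7, D21 and D49, with LPS (filled points, left) and in control cells (open points, right), each point a library and lines joining group means. Tgfb2 and Chil3 were highest with LPS at D49, while Fstl1, Hopx and Il12b had their lowest LPS levels at D49.

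On the lower side the rule named Hopx, Alb, Fga, Mt2, Rnase2a and Slc43a3, none of which passed without a covariate and all of which fell in the covariate fit. Hopx, a homeodomain-only cofactor known from alveolar epithelium, had 5.34 and 6.21 CPM in D49 LPS libraries, against 20.4 and 21.8 CPM in D21 LPS libraries. It fell by 1.96 ± 0.29 on the log2 scale in the covariate fit (adjusted p = 0.00066) and had an adjusted p of 0.052 without a covariate. Levels were 12.8 to 28.9 CPM in LPS libraries of D1, D3 and D7, above the D49 libraries in each case. The 16 lung epithelium markers, Hopx among them, summed to 43.7 and 38.6 CPM in D49 LPS libraries, against 64.4 and 61.1 CPM in D21 LPS libraries, and Ager, Nkx2-1 and Sftpd were at 0 at D49. The fall of Hopx is itself part of these sums. Over the 9 tested markers the median log2 difference was -0.61 in the covariate fit, with 2 above 0 and 7 below, and only Hopx passed. Hopx was higher with LPS than in control cells at both ages, with 1.04 to 1.51 CPM in D49 control and 3.5 to 3.77 CPM in D21 control libraries. The part of epithelial cells in the Hopx values was not tested.

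Igf2bp3, an RNA-binding protein of fetal tissues, had 7.01 and 7.54 CPM in D49 LPS libraries, against 22.9 and 21 CPM in D21 LPS libraries (log2 difference -1.67 ± 0.28 in the covariate fit, adjusted p = 0.0015; adjusted p = 0.06 without D49 LPS library 1). Of 6 tested fetal growth genes it was the only one to fall, and the list's median was -0.31. Csf1, the growth factor of macrophages, had 1.61 and 1.57 CPM in D49 LPS libraries, against 6.05 and 6.29 CPM in D21 LPS libraries (-1.74 ± 0.37, adjusted p = 0.013). Nr4a1, an orphan nuclear receptor induced early after stimulation, had 5.02 and 2.9 CPM at D49, against 15.4 and 17 CPM at D21 (-1.70 ± 0.40, adjusted p = 0.029). Htra4, a secreted serine protease, had 31 and 29.9 CPM at D49, against 72.6 and 71.4 CPM at D21 (-1.36 ± 0.29, adjusted p = 0.013). Mt2, a zinc-binding metallothionein, had 11.1 and 7.9 CPM at D49, against 36.8 and 31.6 CPM at D21 (-1.71 ± 0.33, adjusted p = 0.0061). Slc43a3, a nucleobase transporter, had 16.5 and 16.6 CPM at D49, against 38.9 and 39 CPM at D21 (-1.21 ± 0.29, adjusted p = 0.032). Rnase2a, an eosinophil-type ribonuclease with near-identical paralogs among which counts could be split, had no count at D49, against 4.09 and 5.18 CPM at D21, and was at least 24.8-fold lower (3 counts per D49 library as the floor). The 6 eosinophil markers other than Siglecf summed to 0.901 and 1.39 CPM in D49 LPS libraries, against 3.24 and 2.92 CPM in D21 LPS libraries, with Epx and Prg3 at 0 in all 4, and their part in the Rnase2a value was not tested. With the covariate, Csf1, Nr4a1, Htra4 and Slc43a3 did not pass once any 1 of the 4 LPS libraries was left out, Rnase2a not without D49 LPS library 1, and Mt2 not without D49 LPS library 1, D49 LPS library 2 or D21 LPS library 1.

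More markers of hepatocytes fell than of any other list. Of the 12 markers 6 fell in the covariate fit and 0 rose, with a median log2 difference of -2.44, beside 0.04 over all tested genes; without a covariate 0 of 12 passed (6 at an unadjusted p under 0.05, and 4 with DESeq2) and the median was -2.29. Alb, encoding albumin, had 14.4 and 58.1 CPM in D49 LPS libraries, against 287 and 248 CPM in D21 LPS libraries (-3.14 ± 0.50, adjusted p = 0.0013). The 2 D49 libraries differed among themselves and both lay below both D21 libraries. The fibrinogen alpha chain gene Fga had 0.45 and 2.84 CPM at D49, against 21.8 and 15.9 CPM at D21 (-3.66 ± 0.60, adjusted p = 0.0014), and the beta chain gene Fgb had 1.29 and 2.53 CPM at D49, against 18.5 and 13.5 CPM at D21 (-3.06 ± 0.50, adjusted p = 0.0014). Tdo2, a tryptophan dioxygenase of the liver, had 0.708 and 1.45 CPM at D49, against 8.28 and 7.84 CPM at D21 (-3.14 ± 0.38, adjusted p = 3.2e-05). Fgg, the gamma chain, had 0.901 and 2.71 CPM at D49, against 15.2 and 14.9 CPM at D21, and the mannose-binding lectin gene Mbl1 had 1 count at D49, against 60 at D21 (ratio 0.0178, counting interval 0.000443 to 0.103). Outside the list, the apolipoprotein gene Apob had 1.67 and 5.19 CPM at D49, against 33.3 and 23 CPM at D21 (-3.36 ± 0.58, adjusted p = 0.0022), and Cps1, of the urea cycle, 0.901 and 1.99 CPM at D49, against 14.9 and 8.94 CPM at D21 (-3.29 ± 0.62, adjusted p = 0.0043). Neither passed without D49 LPS library 1, and Cps1 did not pass without D21 LPS library 1.

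Control cells showed the same pattern, with Alb at 13.9, 35.8 and 49.1 CPM in D49 control libraries, against 306, 110 and 211 CPM in D21 control libraries. There 5 of the 12 markers fell in the covariate fit. Leaving Trf aside, which macrophages also express, the other 11 markers summed to 19.9 and 88.4 CPM in D49 LPS libraries, against 389 and 323 CPM in D21 LPS libraries. Alb levels with LPS did not follow age, at 62.8 to 110 CPM at D1, 140 and 155 CPM at D3 and 26.3 and 54.5 CPM at D7. Without D49 LPS library 1, 1 of the 12 markers fell in the covariate fit, with a median of -1.60. What part RNA from outside the macrophages has in these levels was not tested.

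Markers of other cell types were at differing levels. The 9 erythroid markers found in the table summed to 0.193 and 0.603 CPM in D49 LPS libraries, against 3.4 and 2.92 CPM in D21 LPS libraries, and the globin gene Hbb-bs, with 0.0644 and 0 CPM at D49, against 2.02 and 1.49 CPM at D21, was the list's only gene to pass in the covariate fit (1 against 61 counts, ratio 0.0175, counting interval 0.000436 to 0.101, adjusted p = 0.012). It did not pass without either D49 LPS library or without D21 LPS library 1. The 11 gland markers found summed to 7.53 and 10 CPM with LPS at D49 and 11.8 and 11 CPM at D21. In control libraries they summed to 1333 to 2411 CPM at D49 and 1530 to 1819 CPM at D21. At D1, D3 and D7 the sides were reversed, with 295 to 1360 CPM in LPS libraries and 2.8 to 16.4 CPM in control libraries. Skeletal muscle markers reached at most 2.96 CPM in the 4 LPS libraries, and at most 34.4 CPM in D49 control and 325 CPM in D21 control libraries. Of the markers of gland, muscle, eosinophils, mast cells, T and NK cells, B cells, dendritic cells, endothelium, fibroblasts, interstitial macrophages and platelets, 0 passed with LPS in either fit, though few of them were high enough to be tested. Among monocyte markers, which summed to 279 and 255 CPM in D49 LPS libraries, against 257 and 256 CPM in D21 LPS libraries, Nr4a1 fell in the covariate fit.

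The early cytokines of the LPS response did not pass in either fit. Tnf had 3003 and 2530 CPM in D49 LPS libraries, against 2799 and 4489 CPM in D21 LPS libraries (log2 difference 0.06 in the covariate fit, 95% interval -0.70 to 0.83). Il1b had 2206 and 2219 CPM at D49, against 1895 and 2179 CPM at D21 (0.18, interval -0.33 to 0.70). Il6 had 618 and 776 CPM at D49, against 478 and 493 CPM at D21 (0.34, interval -0.13 to 0.80). For Tnf the libraries of the 2 ages overlapped, while both D49 values of Il1b and Il6 lay above both D21 values. Il10, the anti-inflammatory cytokine, had 13.9 and 13.9 CPM in D49 LPS libraries, against 15.3 and 15.6 CPM in D21 LPS libraries (-0.27, interval -1.08 to 0.55). Il12b, a subunit of interleukins that steer T cells, had 16.9 and 16.3 CPM at D49, against 29.7 and 28.6 CPM at D21 (-0.93, interval -1.59 to -0.26, adjusted p = 0.31). Over the 23 tested cytokines 0 rose and 1, Csf1, fell in the covariate fit, with a median of 0.06 (-0.14 without a covariate, a turn of sign that the lists of negative regulators, tolerogenic genes, MHC class I, oxidative burst, lysosome and glycolysis shared). Chemokines had a median of 0.25 and 0 of 19 passed. Il1a, an interleukin released by dying and stimulated cells, had 6182 and 7574 CPM at D49, against 4150 and 4063 CPM at D21, with an interval of 0.11 to 1.02 and an adjusted p of 0.45. Cxcl2, which draws neutrophils, had 5389 and 6303 CPM at D49, against 4525 and 4370 CPM at D21, and the interferon-inducible Cxcl10 had 388 and 272 CPM at D49, against 475 and 360 CPM at D21.

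**Figure D4:**
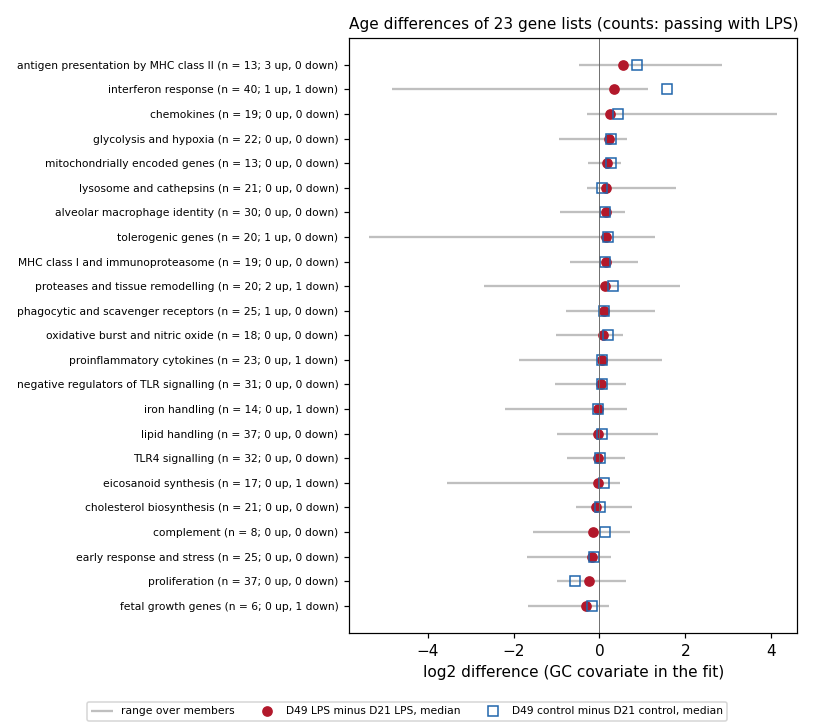
Log2 difference between D49 and D21 (horizontal axis) for 23 gene lists in the covariate fit, with the number of tested members and of those that passed with LPS. Filled points are medians with LPS, open squares medians in control cells, and grey lines the range over members with LPS. The MHC class II list has the highest LPS median (0.56), and the interferon response list has a median of 0.34 with LPS and 1.57 in control cells.

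Of the LPS receptor genes, Tlr4 had 36.4 and 42.6 CPM in D49 LPS libraries, against 24.2 and 21.5 CPM in D21 LPS libraries, and Cd14 had 272 and 198 CPM at D49, against 300 and 364 CPM at D21; neither passed. Over 32 TLR4 signalling genes and 31 negative regulators of that pathway 0 passed, with medians of -0.03 and 0.03. Il1rn, which blocks the interleukin 1 receptor, had 8144 and 8736 CPM at D49, against 7045 and 6689 CPM at D21, and Acod1, the itaconate-making enzyme, had 3043 and 2755 CPM at D49, against 2532 and 2352 CPM at D21. Over 30 genes of alveolar macrophage identity 0 passed in either fit, with a covariate-fit median of 0.15. Chil3 had 20387 and 24707 CPM at D49, against 15218 and 14621 CPM at D21 (0.46, interval 0.01 to 0.91, adjusted p = 0.69). The sialic acid lectin Siglecf had 142 and 142 CPM at D49, against 127 and 108 CPM at D21, and Pparg 88.7 and 86.7 CPM at D49, against 87.6 and 83.2 CPM at D21. The mannose receptor Mrc1 had 2622 and 2803 CPM at D49, against 2271 and 2197 CPM at D21, and the scavenger receptor Marco 624 and 453 CPM at D49, against 662 and 1081 CPM at D21. Clec7a, the beta-glucan receptor dectin-1, had 4009 and 4600 CPM at D49, against 2466 and 2485 CPM at D21 (0.58, interval 0.16 to 1.00, adjusted p = 0.31). The lysozyme gene Lyz2 had 6643 and 5107 CPM at D49, against 3741 and 4506 CPM at D21 (0.73, interval 0.31 to 1.16, adjusted p = 0.12). Both genes had no overlap between the ages and did not pass. With 2 libraries per age, a lack of overlap, here or above, does not by itself show a difference. Its share over all tested genes was not counted. No identity gene named here passed, and neither did these receptors.

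Mki67, the proliferation antigen, had 177 and 200 CPM at D49, against 307 and 292 CPM at D21 (-0.82, interval -1.29 to -0.34, adjusted p = 0.11). Of 37 proliferation genes 0 passed with LPS, with a median of -0.25, and 5 fell in control cells, with a median of -0.58. In the lipid handling (37 genes), cholesterol biosynthesis (21), lysosome (21), oxidative burst (18), glycolysis (22), complement (8), MHC class I (19), early response (25) and mitochondrially encoded (13) lists 0 passed in the covariate fit. Over the 14 lists without a call, which hold 326 tested genes, 34 had an unadjusted p under 0.05 in the covariate fit and 15 without the covariate, beside 822 and 468 of all 11774 tested genes, and DESeq2 called 0.

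In the list of proteases and tissue remodelling, Mmp8 and Timp2 rose and F3, encoding tissue factor, fell. F3 had 0.386 and 0.362 CPM at D49, against 2.65 and 1.69 CPM at D21 (-2.69 ± 0.56, adjusted p = 0.011). Hpgd, a prostaglandin-degrading enzyme, fell in the eicosanoid list, with 3 counts at D49 against 34 at D21 (ratio 0.0942, counting interval 0.0185 to 0.299). Cp, encoding the copper protein ceruloplasmin, fell in the iron list, with 1.29 and 4.16 CPM at D49, against 11.6 and 8.43 CPM at D21 (-2.21 ± 0.42, adjusted p = 0.0052). None of the 3 passed without D49 LPS library 1 or D21 LPS library 1.

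Of the 23 pathway lists, that of the interferon response had the lowest median of the age difference with LPS minus that in control cells, at -1.16 in the covariate fit. With LPS few of them passed between the ages, while in control cells most of them rose at D49. The median level over the 40 tested genes was 102 and 86.2 CPM in D49 LPS libraries, against 85.7 and 89.4 CPM in D21 LPS libraries. In control cells it was 16.1, 14.1 and 12.4 CPM at D49, against 6.32, 4.3 and 5.37 CPM at D21. With LPS, 0 of the 40 rose and 1 (Iigp1) fell without a covariate, and 1 (Slfn5) rose and 1 (Iigp1) fell with it, with list medians of 0.35 and 0.34. In control cells, 25 rose without a covariate and 29 with it, and 1 (Iigp1) fell, with list medians of 1.46 and 1.57. The LPS response of the list, LPS against control at one age, had a median log2 difference of 2.26 at D49 and 3.72 at D21 without a covariate, and of 2.13 at D49 and 3.44 at D21 with it. Ifnb1 had 3.22 and 3.86 CPM in D49 LPS libraries, against 3.5 and 3.37 CPM in D21 LPS libraries, and at most 0.402 CPM in control libraries of both ages.

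Whether the age difference with LPS differed from that in control cells was tested as an interaction. Without a covariate 0 genes passed (0% of those tested; 179 genes had an unadjusted p under 0.05 and DESeq2 called 6). With the covariate, 15 passed: Serpinb2 lay above 0 and 14 genes lay below it (0.119%), of which 10 belong to the interferon response list. All 15 were named after their values were seen. Rtp4, a receptor-transporting protein induced by interferon, had 288 and 278 CPM in D49 LPS libraries, against 259 and 250 CPM in D21 LPS libraries. Its control levels were 53.8, 47.7 and 54.5 CPM at D49, against 10.3, 7.07 and 13 CPM at D21. The interaction was -2.20 ± 0.33 (adjusted p = 0.0011). Rsad2, the antiviral enzyme viperin, had 1684 and 1895 CPM at D49, against 1369 and 1310 CPM at D21 with LPS, and 132, 155 and 179 CPM at D49, against 28.7, 50.7 and 28.2 CPM at D21 in control cells (-1.77 ± 0.28, adjusted p = 0.0028). Ifit1, which binds foreign RNA ends, had 2275 and 2647 CPM at D49, against 1954 and 1928 CPM at D21 with LPS, and 80.3, 87 and 127 CPM at D49, against 24.5, 21.3 and 35.5 CPM at D21 in control cells (-1.53 ± 0.30, adjusted p = 0.023). Irf7, the transcription factor that amplifies interferon production, had 21.6 and 19.1 CPM at D49, against 16.4 and 12.2 CPM at D21 with LPS, and 12.1, 11.9 and 6.64 CPM at D49, against 1.95, 1.47 and 2.13 CPM at D21 in control cells (-1.90 ± 0.34, adjusted p = 0.012).

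**Figure D5:**
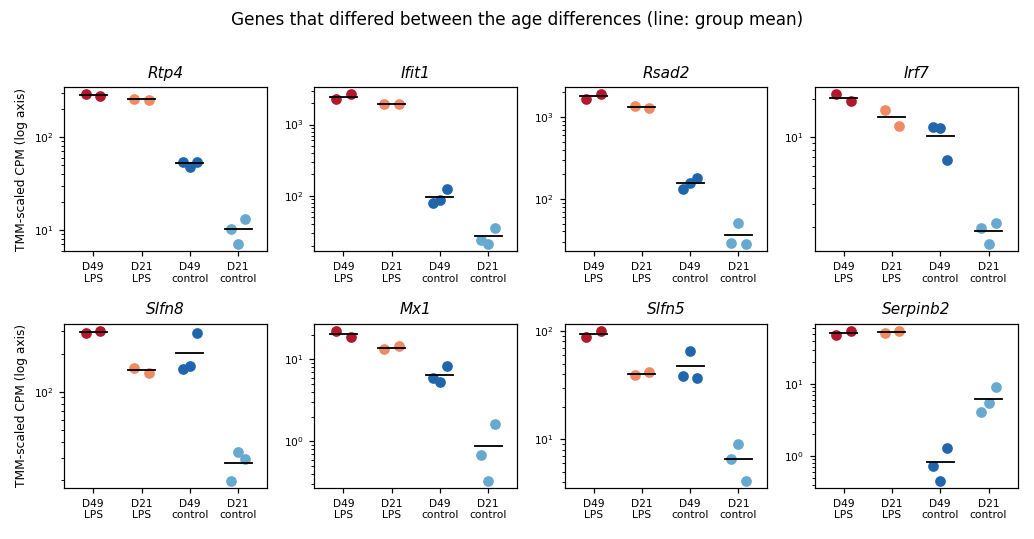
TMM-scaled CPM (log axis) of 8 of the 15 genes whose age difference with LPS differed from that in control cells in the covariate fit, by library; lines are group means. For Rtp4, Ifit1, Rsad2, Irf7, Slfn8, Mx1 and Slfn5 the D49 control libraries lie above the D21 control libraries by more than the D49 LPS libraries lie above the D21 LPS libraries, and for Serpinb2 the D49 control libraries lie below.

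The interaction count moved with single libraries. With the covariate it was 4 without D49 LPS library 2, 9 without D49 LPS library 1, 9 without D21 LPS library 1, 7 without D21 LPS library 2, 5 without D21 control library 1, 29 without D49 control library 1 and 30 without D49 control library 3. Rtp4, Rsad2, Slfn8 and Serpinb2 passed whichever of the 10 libraries was left out; Ifit1 did not pass once any 1 of the 4 LPS libraries was left out, nor without D21 control library 1 or 2, and Irf7 not without either D49 LPS library, D21 LPS library 1 or D21 control library 1. Serpinb2, an inhibitor of plasminogen activators, had 48.3 and 54.2 CPM in D49 LPS libraries, against 50.4 and 53.9 CPM in D21 LPS libraries, and 0.731, 0.457 and 1.28 CPM in D49 control libraries, against 4.08, 5.4 and 8.97 CPM in D21 control libraries (2.83 ± 0.40, adjusted p = 0.0011). The gland marker sums, given above, were at least 1333 CPM in the D49 and D21 control libraries and at most 11.8 CPM in the LPS libraries of these ages. At D1, D3 and D7 the LPS libraries were the higher side. The part of gland RNA in the control levels and in the interaction was not tested.

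Slfn genes, which encode Schlafen proteins and share sequence within their family, so that their counts are uncertain, include the interferon response gene with the highest log2 difference with LPS. Slfn5 had 87.1 and 99.7 CPM in D49 LPS libraries, against 38.9 and 41.5 CPM in D21 LPS libraries, and rose in the covariate fit by 1.12 ± 0.27 (adjusted p = 0.031, not passing once any 1 of the 4 LPS libraries was left out). Slfn1 had 5.47 and 5.19 CPM at D49, against 1.22 and 1.36 CPM at D21 (2.07 ± 0.40, adjusted p = 0.0055, not passing without D49 LPS library 1 or either D21 LPS library). Slfn8 had 291 and 302 CPM at D49, against 155 and 140 CPM at D21, and did not pass (0.82 ± 0.22, adjusted p = 0.091). At D1 the LPS level of Slfn5 was 412 to 566 CPM, above all 4 libraries. Eif2ak2, the kinase PKR that halts translation on double-stranded RNA, had 224 and 259 CPM in D49 LPS libraries, against 114 and 107 CPM in D21 LPS libraries (0.92 ± 0.22, adjusted p = 0.037, not passing once any 1 of the 4 LPS libraries was left out).

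Promoters of these genes were read because interferon-stimulated genes are known to be driven by ISGF3 through the interferon-stimulated response element. Sequences are those of RefSeq on GRCm38.p6, 250 bases before and 50 after the transcription start, 5′ to 3′ on the gene's strand, and 9 of the 14 genes that lay below 0 in the interaction matched an entry. A core of that element, GAAANNGAAA on either strand, was found in 5 of the 9 (55.6%), in 19 of the 31 matched interferon response genes (61.3%) and in 3.99% of all 27025 genes with an entry. Promoters of Ifit1 at chr19:34640639-34640938 (plus strand), Rsad2 at chr12:26456403-26456702 (minus strand) and Slfn5 at chr11:82951852-82952151 (plus strand) are shown as those of genes described above that hold it, with the matches in capitals.
Ifit1: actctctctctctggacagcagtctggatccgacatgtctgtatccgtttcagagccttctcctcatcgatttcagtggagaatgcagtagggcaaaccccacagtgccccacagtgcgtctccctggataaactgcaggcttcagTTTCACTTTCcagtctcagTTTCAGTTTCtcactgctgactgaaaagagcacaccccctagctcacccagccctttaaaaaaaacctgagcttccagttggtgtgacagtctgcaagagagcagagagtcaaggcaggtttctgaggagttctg
Rsad2: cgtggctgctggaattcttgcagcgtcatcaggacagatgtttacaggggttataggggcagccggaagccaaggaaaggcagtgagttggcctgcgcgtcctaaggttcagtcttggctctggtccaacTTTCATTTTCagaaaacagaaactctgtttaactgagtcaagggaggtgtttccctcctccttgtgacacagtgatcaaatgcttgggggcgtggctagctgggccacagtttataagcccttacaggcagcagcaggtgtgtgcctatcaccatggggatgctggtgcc
Slfn5: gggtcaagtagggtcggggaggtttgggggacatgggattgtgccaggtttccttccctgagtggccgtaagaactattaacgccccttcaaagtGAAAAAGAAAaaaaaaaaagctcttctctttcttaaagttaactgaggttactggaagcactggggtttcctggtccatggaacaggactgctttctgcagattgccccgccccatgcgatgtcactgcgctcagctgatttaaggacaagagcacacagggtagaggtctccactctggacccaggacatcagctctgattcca
Ifit1 holds 2 matches, at bases 147 to 156 and 166 to 175 of the window, and Rsad2 and Slfn5 hold 1 each, at bases 131 to 140 and 96 to 105. Slfn8 and Ddx60 were the others with a match, and Irf7, Xaf1, Ifit2 and Helz2 had none in this window. A match describes letters only, and with LPS the 3 genes shown differed in size between the ages: the log2 difference was 0.18 for Ifit1, 0.24 for Rsad2 and 1.12 for Slfn5 in the covariate fit.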

How the data were processed

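Lavage cells were sequenced from total RNA after poly(A) selection, per the labels' protocols. The submitters' processing notes name STAR, DESeq2 and GRCm39, with no versions, and strand handling is not stated there. The deposited table holds whole-number counts per Ensembl gene (56691 genes, with exonic lengths) for 24 libraries in 10 groups of treatment and age, and FPKM was computed from those deposited counts. Counts without a gene symbol were 0.904% of the total.

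The 11774 genes with FPKM of at least 1 in at least 2 libraries were tested with edgeR 4.0.16 (R 4.3.3; TMM factors, quasi-likelihood test, 10 group means). Contrasts were D49 LPS minus D21 LPS, D49 control minus D21 control, and the difference of the 2. The GC deviation of a library is its median log2 deviation from the mean library in the top 10% of genes by GC content minus that in the bottom 10% (prior count 2, GC known for 97.2% of tested genes). Counting intervals and floors cover counting error only. Alternatives were other scalings and filters, subsets of libraries, GC corrections, limma-voom 3.58.1, DESeq2 1.42.0, a replicate block and leaving out each library. Leaving libraries out of the covariate fit was added after seeing the data. The fit without a covariate was tested on simulated data for the contrast D49 LPS minus D21 LPS. The simulated counts were drawn independently for each gene and held no GC deviation of single libraries. They therefore cannot show how the fit behaves with the deviations of these data. The covariate fit and the other contrasts were not tested in this way.

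Deviations of same-numbered libraries of the control groups, which the labels number alike, correlated across genes (r 0.726, 0.232 and 0.272). Libraries of unlike number were not compared, so these values do not show that the numbers pair the libraries. With the block, 131 genes passed in control cells, against 148 without it.

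Genes, lists and tests were chosen with earlier results of these data known. The rule named up to 12 genes per direction among those passing with a mean FPKM from 5 upwards in the higher group, else up to 6 per direction by lowest unadjusted p, 15 genes of macrophage biology in every case, and list members that passed or were highest. Iigp1, Fstl1, Cd207, Slfn1, Eif2ak2, Ereg, Clec5a, Htra4, Apob, Cps1, Fgg, Mbl1 and the genes of the interaction were named after their values were seen. Pool sizes in the labels range from 3 to 5 or 6 mice, depending on the field.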

Additional observations from a re-analysis of the deposited data

Results flagged for a closer look

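In the covariate fit, the age difference between D49 and D21 with LPS differed from that in control cells for 15 genes (edgeR's quasi-likelihood test of the difference itself, Benjamini-Hochberg adjustment). The value is the log2 difference with LPS minus that in control cells, and 0 of these genes passed without the covariate. The lowest was Oas2, an activator of RNA decay, at -3.96 ± 0.68 (adjusted p = 0.0073). Mx1 stood at -2.32 (adjusted p = 0.014), Rtp4 at -2.20 (adjusted p = 0.0011), Gbp6 at -1.93 (adjusted p = 0.022) and Zbp1 at -1.91 (adjusted p = 0.014). Slfn8 (adjusted p = 0.0011), Irf7 (adjusted p = 0.012) and Xaf1 (adjusted p = 0.015) each stood at -1.90. Rsad2 stood at -1.77 (adjusted p = 0.0028), Slfn5 at -1.67 (adjusted p = 0.034), Ddx60 at -1.60 (adjusted p = 0.023) and Ifit2 at -1.55 (adjusted p = 0.022). Ifit1 stood at -1.53 (adjusted p = 0.023) and Helz2 at -1.51 (adjusted p = 0.034). Serpinb2 was the gene above 0, at 2.83 ± 0.40 (adjusted p = 0.0011). With each of the 10 D21 and D49 libraries left out in turn, Slfn5 lost its call in 7 cases, Gbp6, Ddx60 and Ifit1 in 6, Helz2, Ifit2 and Xaf1 in 5, Zbp1 and Irf7 in 4, Mx1 in 3 and Oas2 in 1 (D49 LPS library 2). Rtp4, Rsad2, Slfn8 and Serpinb2 passed whichever D21 or D49 library was left out.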

How the results depend on the processing

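Over 53 named genes and their alternatives, 954 values were compared: 796 kept direction and side of the threshold, 143 newly passed, 15 no longer passed and 0 called values changed sign; 9 uncalled values, of Tnf, Il1b, Ifnb1 and Pparg, changed sign. Of these genes only Iigp1 and Fstl1 passed to begin with. For the 15 interaction genes of the covariate fit, 111 of 240 values no longer passed and 0 changed sign. The count of 2 genes with LPS was 1 with upper-quartile factors, 61 without the filter, 0 with the D21 and D49 libraries alone (246 at an unadjusted p under 0.05), 0 with the 4 LPS libraries alone (1998 unadjusted), 0 with the 11 LPS libraries (775 unadjusted), 99 with the GC covariate, 67 in libraries within a GC deviation of 1, 18 with a smooth GC offset (5 higher), 5 with quantile normalization (3 higher) and 45 with DESeq2 (15 higher). Leaving out 1 LPS library gave 0 to 5 (0 without D49 LPS library 1, 457 unadjusted), and 21 to 72 with the covariate. Without a D49 control library it was 7, 5 or 9 in library order. With the replicate block it was 4, and 86 with the covariate and the block. Deviations of same-numbered LPS libraries correlated at r 0.158. With 2 libraries per group both pairs must give the same r, so this single value does not settle whether the numbers pair the libraries. The control count of 148 was 289 without the filter, 45 with D21 and D49 libraries alone, 396 with the covariate, 388 with covariate and block, 271 with the smooth offset and 242 with DESeq2; leaving out 1 library gave 90 to 285. The interaction count of 0 was 13 without the filter, 1 with the block, 15 with the covariate and 20 with covariate and block. It was 7 with the smooth offset, 1 with quantile normalization and 6 with DESeq2. Leaving out 1 control library of D21 or D49 gave 0 to 4, and 5 to 30 with the covariate. The cause was not tested. The 95% interval of the log2 difference with LPS lay wholly between -1 and 1 for 56.3% of genes with the covariate and for 32% without it, which limits what a gene that did not pass can show.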
